A study of Mus musculus with 6 samples.

Results

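Notch signalling in the liver was followed through 10 transcripts: the receptors Notch1, Notch2, Notch3 and Notch4, the ligands Jag1 and Dll4, the DNA-binding effector Rbpj, and the target genes Hes1, Hey1 and Heyl. They were taken by gene symbol, and all 10 were found among the 22068 symbols of the deposited files. The libraries were of polyadenylated liver RNA from C57BL/6 mice aged 6 weeks, with 3 libraries in each of 2 groups. Control mice carried the genotype Mst1-/- with Mst2fl/fl and no albumin Cre (alb-Cre-/-). Mst1/2 liver-dKO mice (dKO below) carried the same Mst1-/- and Mst2fl/fl alleles and were alb-Cre+/+. By these labels both groups lacked Mst1, and the comparison asked what changed when Cre was added to delete Mst2, another kinase of the Hippo pathway. The albumin promoter that drives Cre is active in hepatocytes and, before birth, in the progenitors that also form bile ducts. Which cells had recombined was not analysed here.

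A Notch receptor is switched on by a ligand on a neighbouring cell. The receptor is then cut by an ADAM protease and by gamma-secretase, and its intracellular part enters the nucleus, binds Rbpj and turns on genes of the Hes and Hey families. In the developing liver, Jag1 on the mesenchyme around the portal vein and Notch2 on progenitors drive the formation of bile ducts, while Dll4, Notch1 and Notch4 are best known from blood vessels and Notch3 from the muscle cells and pericytes around them.

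Levels are in RPKM, reads normalised to transcript length and to the size of the library. Each log2 change compares dKO with control after 1 was added to every RPKM, so changes of low genes come out too small. A gene is called, that is, counted as changed, where limma's p, adjusted after Benjamini and Hochberg over all 11062 genes averaging 1 RPKM or more, is under 0.05. Rough depth estimates, read from the steps between low values, were 16.9 to 24.5 M reads per library, at which 1 read on 1 kb of transcript is worth 0.0408 to 0.0592 RPKM. Stk3, the gene of Mst2, ranged over 5.20 to 6.00 RPKM in controls and 4.25 to 5.32 RPKM with Cre, at a limma adjusted p of 0.424. Stk4, the gene of Mst1, stood at 4.66 to 5.50 RPKM and 4.93 to 5.84 RPKM (limma adjusted p = 0.487). Since only whole-gene values are given, a missing exon would not show, and these levels do not check the genotypes. Calls over the whole table numbered 1965 higher and 240 lower, and the median log2 change of all tested genes was 0.23. After median-ratio scaling of the libraries that median was -0.01, with 873 genes higher and 614 lower (58.7% of calls higher in place of 89.1%), so each change below has to be read against this shift. On the first principal component dKO replicate 3 lay at 49.0, apart from dKO replicates 1 and 2 at 20.3 and 19.2, while controls lay between -35.7 and -25.4. Whether the numbered replicates are separate animals is not in the labels, and the spread behind each p-value is that of these libraries, which may be technical.

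Of the 10 genes, 6 were called higher in dKO liver and 0 lower: Notch1, Notch2, Jag1, Hes1, Heyl and Rbpj. Among the 11062 tested genes, which include 7 of the 10, the corresponding shares were 17.8% and 2.17%. The 10 genes were chosen with earlier results of these data known, so an excess over these shares is a description and not a test. Dll4 was tested and not called, and Notch3, Notch4 and Hey1 had a mean under 1 RPKM and were not tested. The lowest dKO library exceeded the highest control library for 8 of the 10, all but Notch4 and Dll4, against 31.8% of the symbols with a value above 0 in any library; among tested genes this held for 6 of 7, against 38.3%. In a fit with no filter on low values, which takes in all 10, the median log2 change of the 10 genes was 0.60 and that of all 16907 genes was 0.14. That fit called 5 of the 10 higher (all of the above but Heyl), where 8.48% of its genes were higher and 0.858% lower. After median-ratio scaling 3 of the 10 were still called higher, Jag1, Hes1 and Rbpj, where 7.89% of tested genes were higher and 5.55% lower. Upper-quartile scaling left the same 3 (8.62% higher and 4.88% lower overall), and quantile normalization left Jag1 and Hes1 (6.73% and 4.94%). Without dKO replicate 3, 4 were called higher (Notch2, Jag1, Hes1 and Rbpj), and without control replicate 1 or control replicate 3 the same 3 as after scaling. For fits with 1 library left out, here and below, the share called over all genes was not counted, so these counts have no background beside them.

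**Figure D1:**
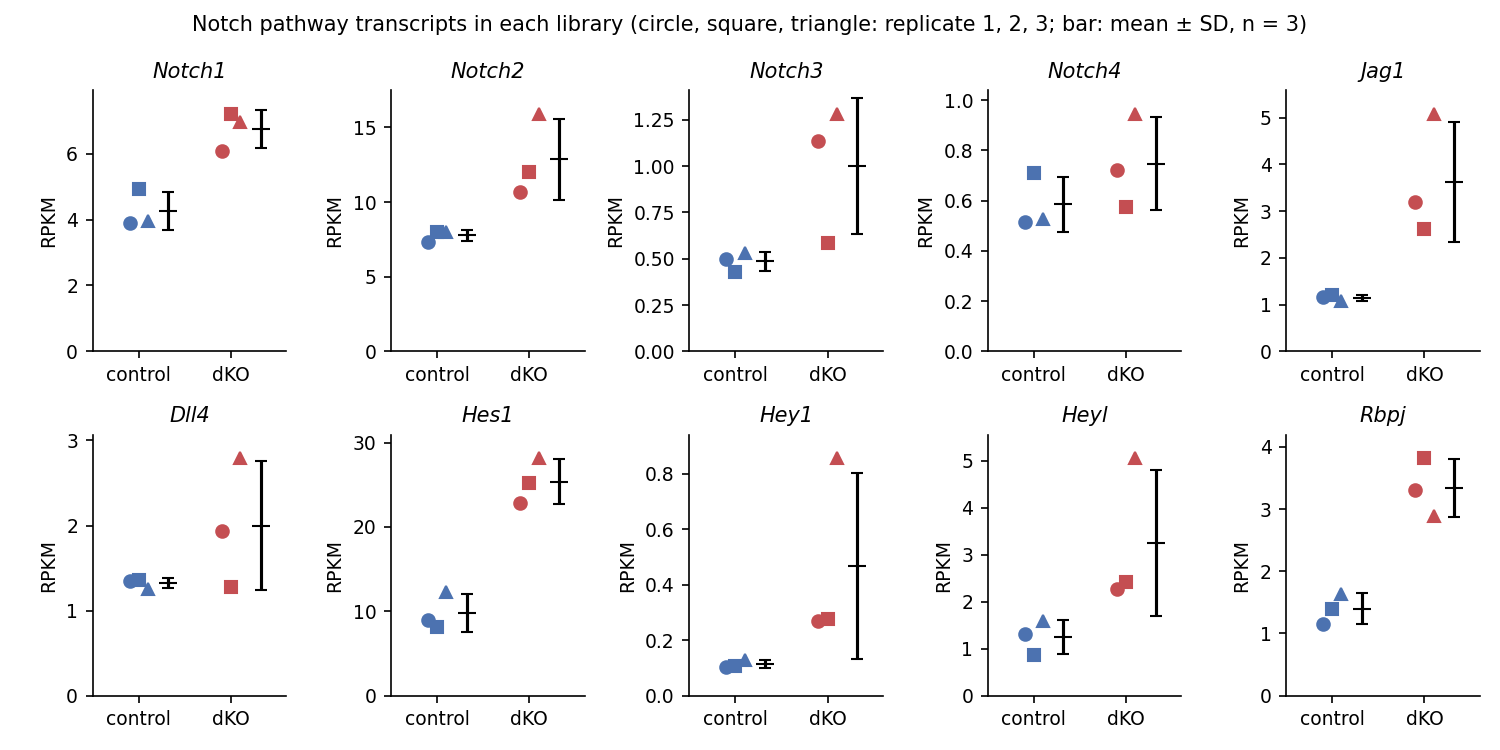
RPKM (y axis, from 0) of each of the 10 transcripts in the 3 control (blue) and 3 dKO (red) libraries, with circles, squares and triangles for replicates 1, 2 and 3 and a black bar for the mean ± SD (n = 3). The groups separate for 8 of the 10 transcripts and overlap for Notch4 and Dll4, and dKO replicate 3 (red triangle) is the highest dKO library for all but Notch1 and Rbpj.

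The promoter windows of Notch1, Notch2, Jag1 and Rbpj are shown because these transcripts were called higher; 7 of the 10 genes had an entry in the RefSeq promoter table (build GRCm38.p6), and Hes1, Hey1 and Heyl had none. Each window runs from 250 bases before to 50 bases after an annotated start, 5′ to 3′ on the gene's strand. It was searched on both strands for TGGGAA, the core of the site bound by Rbpj, and for GGAATG, the core of the site bound by the TEAD factors that carry YAP and TAZ. Capitals mark matches on either strand, so the reverse complements TTCCCA and CATTCC are also in capitals, and no matches overlapped.
Notch1: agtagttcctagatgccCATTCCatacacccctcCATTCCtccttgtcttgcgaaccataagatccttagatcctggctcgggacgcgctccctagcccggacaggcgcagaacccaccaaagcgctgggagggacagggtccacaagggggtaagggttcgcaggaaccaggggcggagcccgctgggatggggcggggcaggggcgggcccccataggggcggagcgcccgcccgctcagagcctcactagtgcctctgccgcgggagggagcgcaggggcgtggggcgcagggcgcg
Notch2: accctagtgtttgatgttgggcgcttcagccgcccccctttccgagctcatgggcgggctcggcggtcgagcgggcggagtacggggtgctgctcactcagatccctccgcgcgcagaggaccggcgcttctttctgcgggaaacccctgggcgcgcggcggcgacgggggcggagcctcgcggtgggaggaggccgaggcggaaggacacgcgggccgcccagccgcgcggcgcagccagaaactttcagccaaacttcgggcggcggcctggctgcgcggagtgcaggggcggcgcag
Jag1: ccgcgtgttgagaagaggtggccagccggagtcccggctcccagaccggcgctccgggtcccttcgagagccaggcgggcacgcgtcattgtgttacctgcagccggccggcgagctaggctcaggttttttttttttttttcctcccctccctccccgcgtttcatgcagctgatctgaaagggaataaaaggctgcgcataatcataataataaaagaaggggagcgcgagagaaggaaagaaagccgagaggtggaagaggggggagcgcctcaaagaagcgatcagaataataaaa
Rbpj: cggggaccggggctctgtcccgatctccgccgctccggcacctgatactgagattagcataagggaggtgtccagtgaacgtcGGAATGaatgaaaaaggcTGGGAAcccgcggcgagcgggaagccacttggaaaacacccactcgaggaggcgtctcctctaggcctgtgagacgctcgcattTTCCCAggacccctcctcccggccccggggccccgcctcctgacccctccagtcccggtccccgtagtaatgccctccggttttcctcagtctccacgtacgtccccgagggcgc
These windows lie at chr2:26503773-26504072 (minus strand) for Notch1, chr3:98013288-98013587 (plus strand) for Notch2, chr2:137116471-137116770 (minus strand) for Jag1 and chr5:53590096-53590395 (plus strand) for Rbpj. The Notch1 window held the TEAD letters 2 times, at positions 18 and 35 from its 5′ end, and the Rbpj window held 1 at position 84. The same window of Rbpj held the Rbpj letters 2 times, at positions 102 and 186. The table holds another start of Rbpj further on, at chr5:53590236-53590535, whose window holds the later of these matches again, at its position 46. Of the windows not shown, Notch4 had 1 TEAD match and Notch3 and Dll4 had no match to either. Over all 32851 windows of the table, 25.6% held TGGGAA and 14.7% held GGAATG on either strand, and a match is a run of letters and not a measured binding site.

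Among the receptors, Notch2 and Notch1 made up most of the signal and rose by a similar factor. Notch2, the receptor of bile duct formation, reached 7.35, 7.97 and 7.97 RPKM in the controls (replicates in the order 1, 2, 3 here and below), against 10.7, 12.0 and 15.9 RPKM with Cre. All dKO libraries lay above all controls, with the highest value in dKO replicate 3. The mean went from 7.77 ± 0.36 to 12.9 ± 2.70 RPKM (SD, n = 3), a 1.66-fold rise for a log2 change of 0.64 (SE 0.15; limma, adjusted p = 0.023). Notch1, a receptor of endothelial and many other cells, was at 3.91, 4.93 and 3.95 RPKM without Cre and at 6.08, 7.20 and 6.97 RPKM with it. Its groups did not overlap either, and here dKO replicate 2 was the highest. The mean rose 1.58-fold, from 4.26 ± 0.58 to 6.75 ± 0.59 RPKM (SD, n = 3), for a log2 change of 0.56 (SE 0.14; limma, adjusted p = 0.0252).

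Both receptor calls depended on how libraries were scaled. After median-ratio scaling the log2 change was 0.38 for Notch2 and 0.32 for Notch1, with limma adjusted p of 0.0726 and 0.113, and upper-quartile scaling and quantile normalization ended both calls as well. They were also lost without control replicate 1 or 3, and that of Notch1 without dKO replicate 2 or 3. The limma adjusted p over 16 alternatives ran from 0.00839 to 0.0776 for Notch2 and from 0.00345 to 0.167 for Notch1.

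Notch3, the receptor of vascular muscle and pericytes, measured 0.501, 0.431 and 0.529 RPKM in control and 1.13, 0.585 and 1.28 RPKM in dKO libraries. There was no overlap, but dKO replicate 2 lay just above the controls while dKO replicates 1 and 3 were well above them. Notch4, a receptor of endothelial cells, measured 0.515, 0.711 and 0.528 RPKM in control and 0.720, 0.575 and 0.944 RPKM in dKO libraries, and its groups overlapped. Without a filter on low values the limma adjusted p was 0.139 for Notch3 and 0.491 for Notch4. At the estimated depths these levels amount to 8.47 to 30.8 reads per kb of transcript for Notch3 and 8.71 to 22.7 for Notch4, so counting error is large.

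The 4 receptors summed to 13.1 ± 0.89 RPKM in controls and 21.4 ± 3.34 RPKM with Cre (SD, n = 3), in similar proportions. Notch2 held 59.4% ± 2.39 of the receptor RPKM in control and 59.9% ± 3.09 in dKO libraries (SD, n = 3), and Notch1 held 32.5% ± 2.41 and 31.9% ± 3.81. A ratio of 2 genes within a library does not depend on the factor by which that library is scaled. The log2 ratio of Notch2 to Notch1 was 0.87 ± 0.16 in control and 0.91 ± 0.24 in dKO libraries, a difference of 0.04 (exact two-sided permutation p = 0.8). The ratio of Notch3 to Notch1 differed by 0.30 between the groups and that of Notch4 to Notch1 by -0.33, with exact permutation p of 0.6 and 0.3. The smallest p that 3 against 3 libraries allow is 0.1, and over the 6 ratios computed the Benjamini-Hochberg adjusted p was 0.8 for each of these 3.

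**Figure D2:**
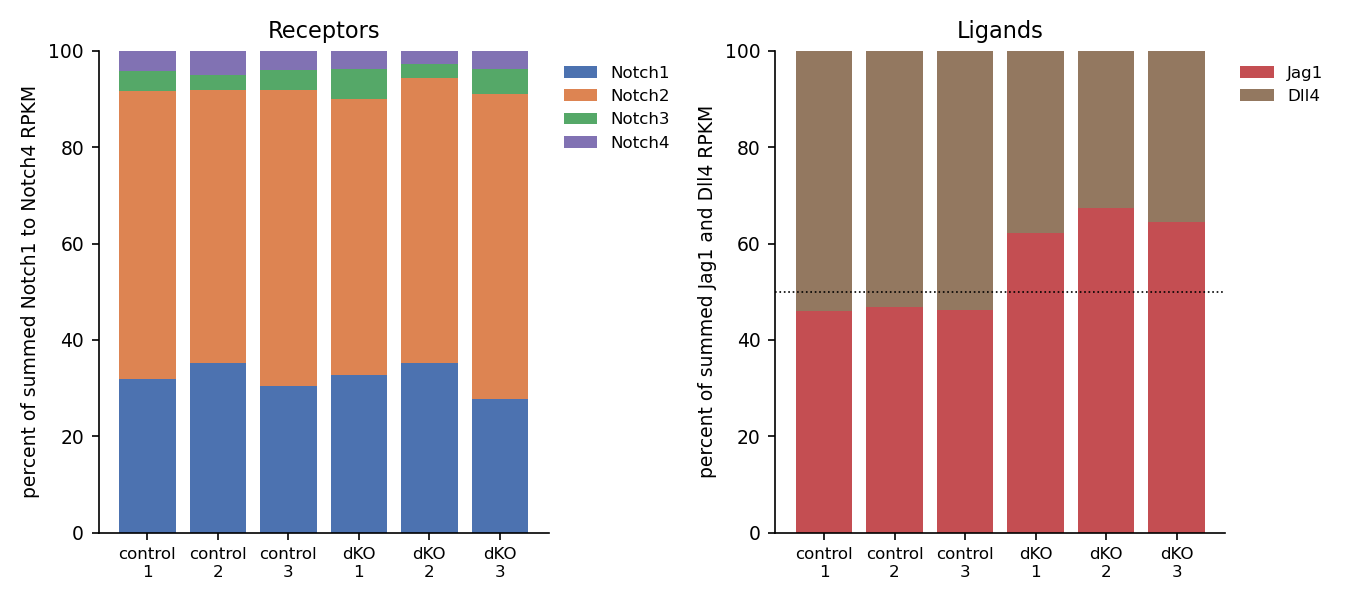
Left, percent of the summed Notch1 to Notch4 RPKM held by each receptor, and right, percent of the summed Jag1 and Dll4 RPKM held by each ligand, with 1 bar per library. The receptor bars keep Notch2 between 56.7% and 63.3%, and the ligand bars move from 46.0% to 46.9% Jag1 in control to 62.2% to 67.3% in dKO libraries, across the dotted line at 50%.

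Of the ligands, Jag1 was called higher and Dll4 was not. Jag1, the ligand whose loss causes a paucity of bile ducts, measured 1.15, 1.20 and 1.08 RPKM in control and 3.19, 2.63 and 5.08 RPKM in dKO libraries. Controls lay within a narrow band, and every dKO library was above it, dKO replicate 3 furthest. The mean rose 3.17-fold, from 1.14 ± 0.06 to 3.63 ± 1.28 RPKM (SD, n = 3), for a log2 change of 1.08 (SE 0.20; limma, adjusted p = 0.0101). The call of Jag1 held under all 16 alternatives, with limma adjusted p of 0.000487 to 0.0402 and log2 changes of 0.74 to 1.53. Dll4, the ligand of growing vessels, measured 1.35, 1.36 and 1.26 RPKM in control and 1.93, 1.28 and 2.79 RPKM in dKO libraries. Here dKO replicate 2 lay among the controls and dKO replicates 1 and 3 above them. For Dll4 the log2 change came to 0.34 (SE 0.20; limma, adjusted p = 0.242), and under quantile normalization it was -0.02.

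In each control library Dll4 exceeded Jag1, and in each dKO library Jag1 exceeded Dll4. The log2 ratio of Jag1 to Dll4 was -0.23, -0.18 and -0.22 in control and 0.72, 1.04 and 0.86 in dKO libraries. The difference of 1.09 was larger than the SD within the groups (0.03 and 0.16). Control libraries held an estimated 19.5 to 29.4 reads per kb of Jag1 and 22.9 to 33.3 of Dll4, so these SDs of 3 libraries are rough. The exact two-sided permutation p of 0.1 is the smallest this design allows, with an adjusted p of 0.6 over the 6 ratios. Leaving out any 1 library gave differences of 1.00 to 1.16. Jag1 thus made up 46.4% ± 0.49 of the RPKM of both ligands in control and 64.7% ± 2.54 in dKO libraries (SD, n = 3).

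Rbpj, which both represses targets without Notch and activates them with it, measured 1.15, 1.40 and 1.64 RPKM in control and 3.31, 3.82 and 2.89 RPKM in dKO libraries. The groups stood well apart, and dKO replicate 3, the highest for most of the other genes, was the lowest dKO library here. The mean rose 2.39-fold, from 1.40 ± 0.25 to 3.34 ± 0.46 RPKM (SD, n = 3), for a log2 change of 0.86 (SE 0.16; limma, adjusted p = 0.00952). Of 16 alternatives only quantile normalization ended the call of Rbpj, with a log2 change of 0.50 and a limma adjusted p of 0.0949.

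Among the targets, Hes1, a repressor of the basic helix-loop-helix family, was the most abundant of the 10 transcripts and had the smallest p. It measured 8.94, 8.17 and 12.3 RPKM in control and 22.8, 25.2 and 28.1 RPKM in dKO libraries, so that the lowest dKO library was well above the highest control. The mean rose 2.58-fold, from 9.82 ± 2.22 to 25.4 ± 2.67 RPKM (SD, n = 3), for a log2 change of 1.30 (SE 0.16; limma, adjusted p = 0.00263). The call of Hes1 held under all 16 alternatives (limma adjusted p of 0.000477 to 0.018, log2 changes of 1.01 to 1.46).

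Heyl, a Hes-related repressor that is prominent in vascular muscle, measured 1.31, 0.860 and 1.58 RPKM in control and 2.28, 2.42 and 5.05 RPKM in dKO libraries. Again the ranges stayed apart, and dKO replicate 3 was far above the other dKO libraries. Its log2 change came to 0.87 (SE 0.25; limma, adjusted p = 0.0439). Of 16 alternatives 10 ended this call, with a limma adjusted p of 0.0872 after median-ratio scaling and 0.0822 without dKO replicate 3, where the log2 change of Heyl was 0.59. With sample weights the log2 change was 0.48 and the call remained. The call was kept with 1 of the 6 libraries left out, dKO replicate 1, and lost without each of the others, with adjusted p up to 0.109; the range over all 16 alternatives was 0.023 to 0.166.

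Hey1, a Hes-related repressor of endothelial cells, was the lowest of the 10, at 0.105, 0.108 and 0.130 RPKM in control and 0.269, 0.277 and 0.855 RPKM in dKO libraries. All dKO values lay above all control values, and again dKO replicate 3 stood above the rest. At the estimated depths the controls amount to 1.77 to 2.67 reads per kb and the dKO libraries to 5.71 to 20.6, too few for a firm fold change. Without a filter on low values the limma adjusted p was 0.147. The log2 ratio of Hes1 to Hey1 differed by -0.42 between the groups (exact permutation p = 0.6) and that of Hes1 to Rbpj by 0.12 (exact permutation p = 0.7), with an adjusted p of 0.8 for both over the 6 ratios.

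**Figure D3:**
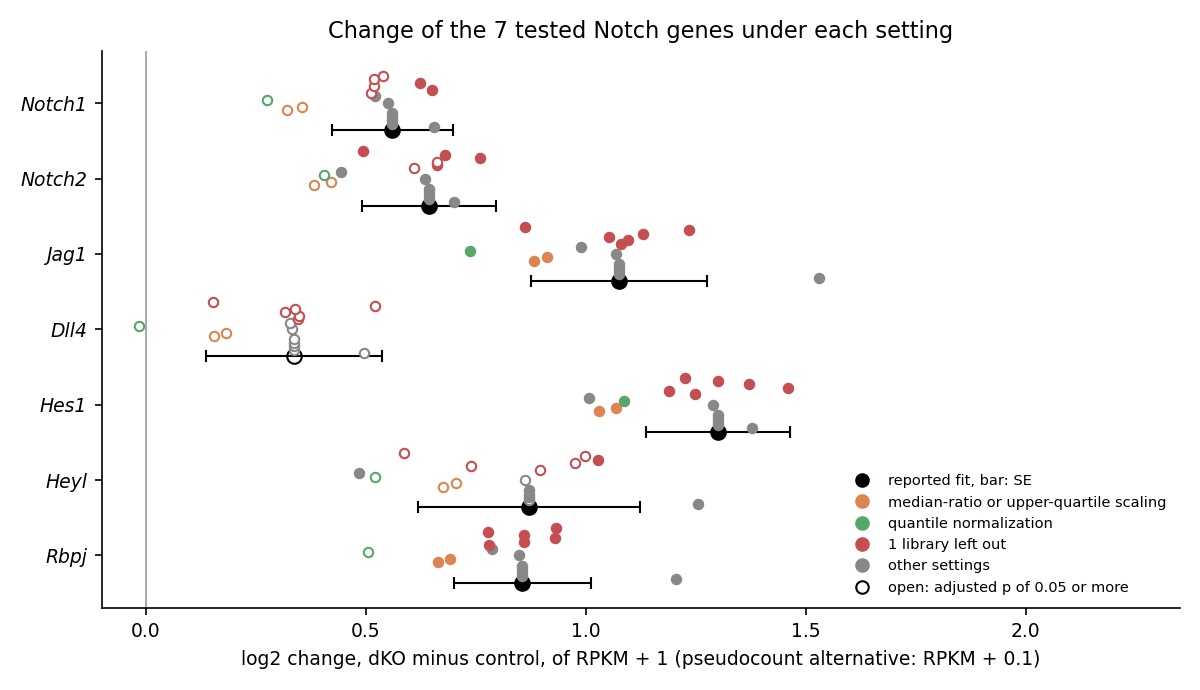
Log2 change (x axis, dKO minus control) of the 7 tested genes in the reported fit (black, bar: SE) and under 16 other settings, with open circles where the adjusted p was 0.05 or more. Jag1 and Hes1 stay filled throughout, Rbpj opens only under quantile normalization, and Notch1, Notch2 and Heyl open under each of the median-ratio, upper-quartile and quantile settings.

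RPKM is per length, so levels can be ordered across genes. In control liver the order was Hes1, Notch2, Notch1, Rbpj, Dll4, Heyl, Jag1, Notch4, Notch3 and Hey1. Between adjacent ranks, Rbpj overlapped Dll4, Dll4 overlapped Heyl, Heyl overlapped Jag1 and Notch4 overlapped Notch3, and the other adjacent ranks did not overlap. In dKO liver Hes1, Notch2 and Notch1 kept their places. Jag1 moved from rank 7 to rank 4, at a level that overlapped those of Rbpj and Heyl, and below Notch1 every neighbour overlapped the next.

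The rest of the pathway was read from 73 further genes grouped by role, all of them in the files and 56 of them tested. Of these 13 were called higher and 0 lower, or 23.2% of the tested genes against 17.8% of all tested genes, with a median log2 change of 0.30 against 0.23. After median-ratio scaling 6 were higher and 1 lower, where 7.89% of all tested genes were higher and 5.55% lower. The 1 lower was Tle1, a corepressor, with a log2 change of -0.45 and a limma adjusted p of 0.0351. Leaving out control replicate 1 gave 3 called genes and control replicate 3 gave 6; leaving out dKO replicate 1 gave 7 and dKO replicate 3 gave 5. By role, 5 of the 13 were listed as other targets, 4 were corepressors, and 0 belonged to ligand endocytosis or receptor cleavage. With only 5 and 9 tested genes in the last 2 roles, 0 calls cannot be set apart from the 17.8% of all tested genes.

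Of 6 other ligands and ligand-like genes, 2 were tested and 1 was called. Dlk2, a membrane protein related to the Delta ligands, was listed at 0, 0 and 0.218 RPKM in control and at 1.79, 2.80 and 1.90 RPKM in dKO libraries (log2 change 1.55 ± 0.19 (SE), limma adjusted p = 0.0024). It passed the filter on low values through its dKO level alone, and its call held under all 16 alternatives. The ligand Dll1 averaged 1.55 RPKM in controls and 1.40 RPKM with Cre (limma adjusted p = 0.843), and Dll3 was at 0 in all libraries. Jag2, the other Jagged ligand, stood at 0 to 0.0471 RPKM.

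Of 5 tested genes for ligand endocytosis, which pulls on the bound receptor, 0 were called. The most abundant, Epn1, an epsin, averaged 31.3 ± 1.97 RPKM in controls and 32.7 ± 1.69 RPKM with Cre (limma adjusted p = 0.723). Of the 9 tested genes of receptor cleavage, among them Adam10, Adam17 and the gamma-secretase subunits Ncstn and Aph1a, 0 were called, with a median log2 change of 0.10. Furin, the protease that first cuts the receptor, averaged 49.8 ± 1.05 RPKM in controls and 45.1 ± 2.22 RPKM with Cre (limma adjusted p = 0.423). With a limma p under 0.05 before adjustment stood 1 gene of ligand endocytosis and 2 of receptor cleavage.

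Of 5 tested genes that add sugars to the receptor 1 was called, Poglut1, an O-glucosyltransferase (log2 change 0.41 ± 0.12 (SE), limma adjusted p = 0.0471). The O-fucosyltransferase gene Pofut1 was not called (limma adjusted p = 0.0981). Of 9 tested genes of receptor turnover 1 was called, Dtx3, a member of the Deltex family of ubiquitin ligases. Dtx3 measured 2.34, 1.88 and 1.89 RPKM in control and 4.21, 3.16 and 7.95 RPKM in dKO libraries (limma adjusted p = 0.0389), highest in dKO replicate 3, without which the limma adjusted p was 0.0549. Nedd4, a ubiquitin ligase, was not called (limma adjusted p = 0.0824).

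Of 6 tested coactivators 1 was called, Maml1, a Mastermind protein that joins Rbpj and cleaved Notch (log2 change 0.42 ± 0.13 (SE), limma adjusted p = 0.046). The acetyltransferase gene Kat2b was not called (limma adjusted p = 0.309). Of 14 tested corepressors 4 were called: Tle3, a Groucho-type corepressor (log2 change 0.69, limma adjusted p = 0.0177), Kdm1a, a histone demethylase (0.72, limma adjusted p = 0.0324), Ctbp1 (0.49, limma adjusted p = 0.0469) and Cir1 (0.53, limma adjusted p = 0.0482). Ncor1, the most abundant that was not called, had a log2 change of 0.05 (limma adjusted p = 0.803). Poglut1, Dtx3, Maml1, Kdm1a, Ctbp1 and Cir1 lost their calls after median-ratio scaling, with limma adjusted p of 0.0691 to 0.385, and Tle3 kept it (limma adjusted p = 0.0419). Without dKO replicate 3 the same 6 lost their calls (0.0549 to 0.112) and Tle3 kept it (0.0398).

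Of 12 further genes listed as targets, 6 were tested and 5 called. Hes6, a Hes family member that opposes Hes1, measured 4.45, 5.06 and 7.19 RPKM in control and 12.6, 10.2 and 12.8 RPKM in dKO libraries, for a log2 change of 0.98 (SE 0.17; limma, adjusted p = 0.00874) that held under all 16 alternatives. Nrarp, a feedback inhibitor that answers closely to Notch, stood at 1.41, 0.571 and 0.909 RPKM in control and 1.21, 0.892 and 0.876 RPKM in dKO libraries, with overlapping groups. Its mean under 1 RPKM kept it out of the main test. Without a filter on low values its log2 change was 0.04 (limma adjusted p = 0.901). Hey2 stood at 0.0181 to 0.273 RPKM, and Hes5 at 0 in all libraries but control replicate 3, with 0.0750 RPKM. The other called genes have many inputs besides Notch, and whether Hes6 or any of them answered to Notch here was not tested. Cdkn1a, the cell cycle inhibitor p21, rose 3.60-fold to 35.2 ± 4.75 RPKM (limma adjusted p = 0.000547), Id1 rose 2.39-fold to 22.7 ± 5.52 RPKM (limma adjusted p = 0.0201) and Myc rose 2.71-fold to 7.26 ± 2.12 RPKM (limma adjusted p = 0.019). Ccnd1, which encodes cyclin D1, rose 1.59-fold to 51.7 ± 1.34 RPKM (limma adjusted p = 0.013) and lost its call after median-ratio scaling (0.0775), while Id1 and Myc lost theirs without dKO replicate 3 (0.0694 and 0.06). The transcription factor gene Bhlhe40 was not called (limma adjusted p = 0.491).

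**Figure D4:**
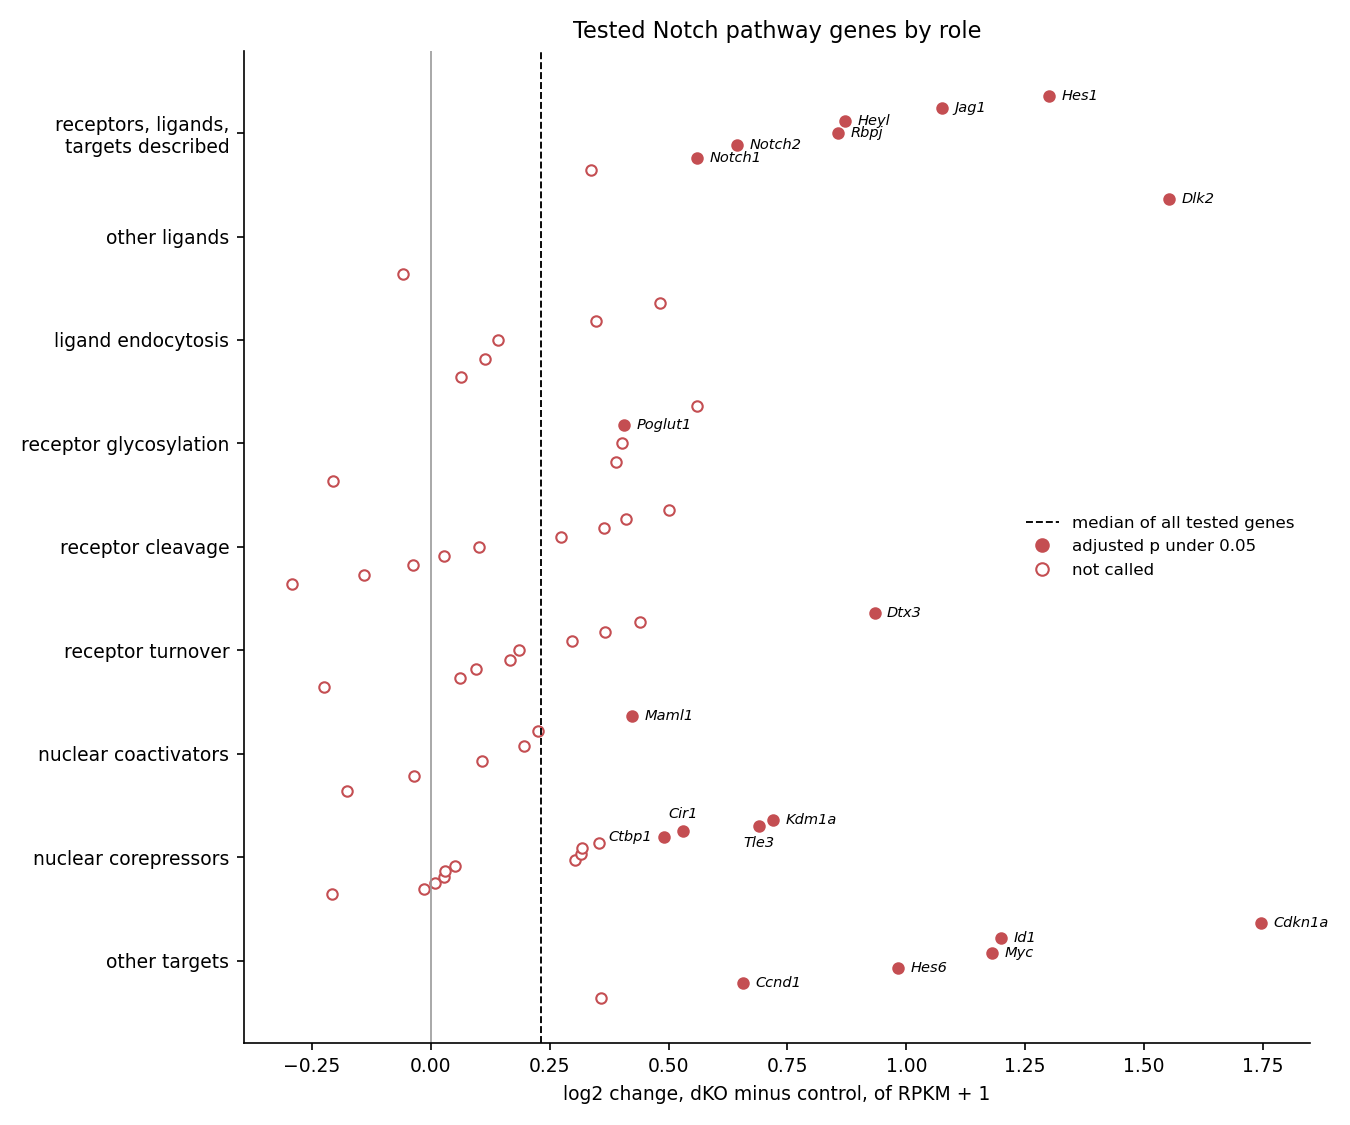
Log2 change (x axis, dKO minus control) of each tested Notch pathway gene by role, filled and named where the adjusted p was under 0.05, with a dashed line at the median of all tested genes, 0.23. The top row holds 6 filled points and the row of other targets 5, and the rows of ligand endocytosis and receptor cleavage hold none.

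Markers of the cell types that carry these genes were read beside them, since in bulk liver a change in the number of cells of a type and a change in RNA per cell cannot be told apart. Of 14 cholangiocyte and progenitor markers 8 were tested and 8 called higher, and 0 of the 14 were at 0 in every library. Epcam, at a mean of 0.359 RPKM in control and 6.77 RPKM in dKO libraries, passed the filter on low values only through its dKO level. The 6 untested markers include Muc1, which averaged 0.575 ± 0.038 RPKM in controls and 0.502 ± 0.077 RPKM with Cre (SD, n = 3). After each of median-ratio, upper-quartile and quantile scaling, and without dKO replicate 3, 6 were called higher; Krt19 and Cd24a lost their calls in all of these (limma adjusted p of 0.0898 and 0.057 after median-ratio scaling). Their summed RPKM ran from 61.0 to 117 in control and from 410 to 1106 in dKO libraries. Spp1 (osteopontin), at 20.9, 18.7 and 64.7 RPKM without Cre and 454, 306 and 910 RPKM with it, made up most of the dKO sum, and Cdh1 (E-cadherin) and Prom1 (CD133) rose 2.57-fold and 3.35-fold. The list was lowest among dKO libraries in replicate 2 and highest in replicate 3, as was Jag1. Notch2 and Hes1 were also highest in replicate 3 but lowest in replicate 1. The part of cells with these markers in the change of Jag1, Notch2 and Hes1 was not tested.

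Of 18 endothelial markers all were tested and 0 called, by limma adjusted p under 0.05, and 0 had a p under 0.05 before adjustment. The summed endothelial RPKM was 176 to 181 in control and 181 to 209 in dKO libraries. Eng (endoglin) stood at 22.4 ± 1.81 and 22.5 ± 1.68 RPKM, and Clec4g, a lectin of sinusoids, at 26.2 ± 3.40 and 31.0 ± 5.44 RPKM (SD, n = 3). The median log2 change of the 18 was 0.12, and -0.11 after median-ratio scaling. Of 6 arterial markers, 2 were tested and 1 was called, Gja4 (connexin 37), at 1.85, 2.72 and 1.73 RPKM in control and 4.56, 3.70 and 6.29 RPKM in dKO libraries (limma adjusted p = 0.0179). The summed arterial level was 3.87 to 4.87 RPKM in control and 6.49 to 10.7 RPKM in dKO libraries. It was highest in dKO replicate 3, as were Dll4, Notch4 and Hey1, but also the cholangiocyte and endothelial sums. The part of arterial cells in the values of Dll4, Notch4 and Hey1 was not tested.

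Of 15 mural and stellate cell markers 11 were tested, 3 called higher and 1 lower, with a sum of 65.8 to 71.7 RPKM in control and 81.6 to 138 RPKM in dKO libraries. Rgs5, a pericyte gene, rose 2.67-fold to 22.7 ± 5.44 RPKM (limma adjusted p = 0.00447) and Colec11, a collectin, rose 1.58-fold (limma adjusted p = 0.0314), while the stellate cell gene Reln was not called (limma adjusted p = 0.353). The third marker called higher was Ngfr (2.13-fold, limma adjusted p = 0.0248), and Hand2 fell to 0.482 of its control mean (limma adjusted p = 0.035). Under each of the 3 scalings 1 marker, Rgs5, was called higher, with limma adjusted p of 0.125 for Colec11 and 0.0518 for Ngfr after median-ratio scaling. Without dKO replicate 3 the calls of Colec11 (limma adjusted p = 0.0958) and Hand2 (0.101) were lost. The sum was lowest among dKO libraries in replicate 2 and highest in replicate 3, as was Notch3, and Heyl was also highest in replicate 3. The cholangiocyte, arterial and macrophage sums had the same order among dKO libraries, as did Notch4, Jag1 and Dll4. Such a match is therefore not particular to 1 list or gene. The part of mural and stellate cells in Notch3 and Heyl was not tested. Of 9 macrophage markers 1 was called higher, Vsig4, and 0 lower, with a sum of 112 to 231 RPKM in control and 184 to 271 RPKM in dKO libraries, and Cd5l averaged 45.7 ± 26.8 and 66.3 ± 13.1 RPKM (SD, n = 3). Marco averaged 12.5 ± 7.47 RPKM in control and 3.52 ± 1.11 RPKM in dKO libraries, with no overlap (limma adjusted p = 0.0531), and under each of the 3 scalings it was the 1 macrophage marker called lower. Of 10 hepatocyte markers 2 were called lower, Ttr (0.467 of its control mean, limma adjusted p = 0.0413) and Serpina1a (0.429, limma adjusted p = 0.0489). Both calls were lost under each of the 3 scalings and without dKO replicate 3 (0.052 and 0.13). After median-ratio and after upper-quartile scaling 1 other hepatocyte marker was called lower, where 5.55% and 4.88% of all tested genes were lower. After quantile normalization 0 of the list were called lower. Without overlap between the groups, 5 of the 10 lay lower in dKO libraries and 1, Trf (transferrin), lay higher. Trf was not called, at 1.66 times its control mean (limma adjusted p = 0.0612). Of all tested genes 38.3% were higher without overlap, and the share that was lower was not counted. Without dKO replicate 3, 0 hepatocyte markers were called lower and 1, Trf, higher. The hepatocyte list had a sum of 54392 to 70471 RPKM in control and 52215 to 61607 RPKM in dKO libraries, and Alb (albumin) at 43195 ± 6100 and 36501 ± 2121 RPKM (SD, n = 3) marks all 6 libraries as liver. In each of these lists 0 markers were at 0 in every library.

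**Figure D5:**
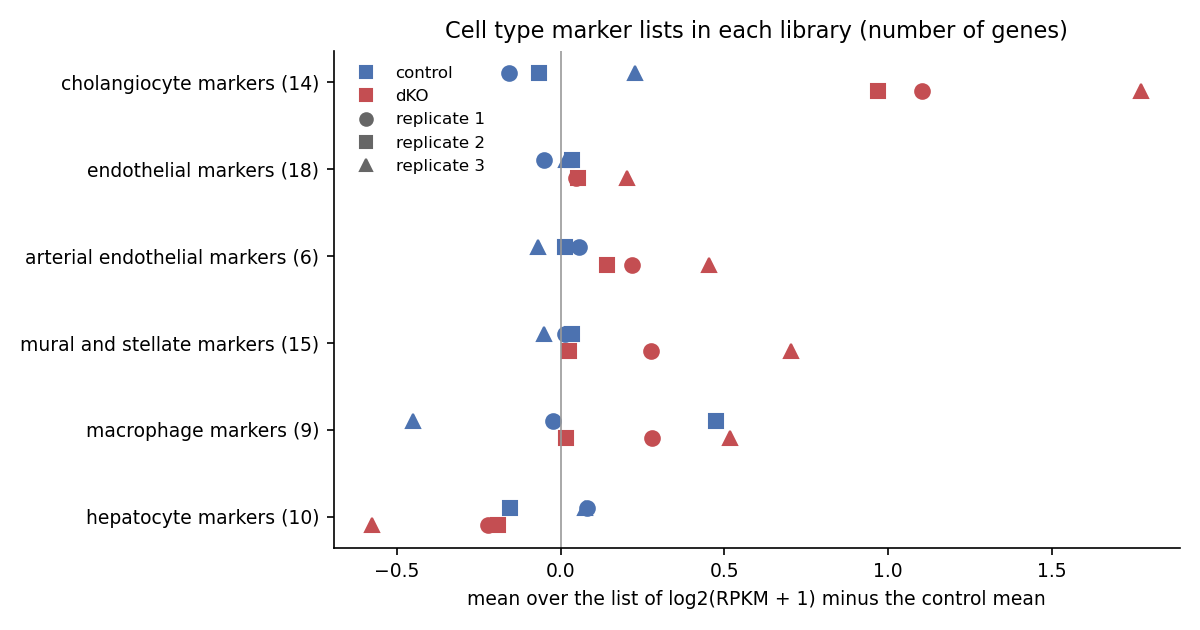
Mean over each marker list of log2(RPKM + 1) minus the control mean (x axis) in control (blue) and dKO (red) libraries, with circles, squares and triangles for replicates 1, 2 and 3 and the number of genes in brackets. The cholangiocyte list lies at 0.97 to 1.77 in dKO libraries, the endothelial list at 0.05 to 0.20 and the mural and stellate list at 0.03 to 0.70, each highest in dKO replicate 3.

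For each of the 6 called genes, up to 2 genes with the most similar profile are named, among those with a mean of at least 5 RPKM. Likeness was the root mean square difference over the 6 libraries, after subtracting each gene's control mean on the log2 scale. Jag1 was nearest to Plscr3 (0.03) and Llgl2 (0.05), and Hes1 to Slc12a4 (0.09) and Lims2 (0.10). Notch1 was nearest to Exoc4 (0.04) and Snx24 (0.06), and Notch2 to Rpl14 (0.04) and Fem1c (0.05). Heyl was nearest to Tns1 (0.08) and Ing4 (0.10), and Rbpj to Lgals8 (0.07). None of the named genes was shared between the 6, and with 6 libraries such matches are a description only.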

How the data were processed

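Each library was 1 table of a value per gene symbol, deposited by the authors. The values were read as RPKM, from their spacing and totals, since the deposited files name no unit. Build mm9 is named, per the submitters' processing notes; aligner, counting tool and annotation are not given in the sources used here. Symbols are those of the files.

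Every gene averaging 1 RPKM or more was tested as log2(RPKM + 1) with limma 3.58.1 in R 4.3.3 (trend, robust moderation, control against dKO, 3 libraries each), and p-values were adjusted over all 11062 by Benjamini-Hochberg. RPKM are not counts, so no count test was run. Ratios of 2 genes were compared by exact two-sided permutation. The scripts were tested on simulated data. Estimated depths rest on low values lying within 0.15 of a whole read, which 61.4% to 69.4% did, against 30% for evenly spread values, so they are rough.

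The 10 genes and all lists were chosen with earlier results of these data known. Named were all 10, every called gene of the wider pathway, the most abundant uncalled gene of each role, and up to 3 of the most abundant markers of a list; Jag2, Dll3, Nrarp, Hes5, Hey2, Tle1, Epcam, Muc1, Krt19, Cd24a, Ngfr, Hand2, Vsig4, Marco and Serpina1a were named after their values were seen. Alternatives changed the pseudocount, filter, moderation, scaling, weights, replicate block or libraries, 16 per gene. One gene with a profile like that of Rbpj is not reported here.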

Additional observations from a re-analysis of the deposited data

How the results depend on the processing

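Of the 10 genes, 6 were called higher; the count was 3 after median-ratio or upper-quartile scaling and 2 after quantile normalization, and 3 to 6 with 1 library left out. Of the 56 tested genes of the wider pathway 13 were called higher, where 17.8% of all tested genes were. The count was 6 after median-ratio scaling, 7 after upper-quartile scaling and 5 after quantile normalization. The shares of all tested genes were 7.89%, 8.62% and 6.73% in that order. With no filter it was 8, where 8.48% of all genes in that fit were higher. That fit took in the 73 genes except the 3 at 0 in every library. The count was 20 with sample weights, and 3 to 9 with 1 library left out. Under each of the 3 scalings 1 wider pathway gene, Tle1, was called lower in place of 0. The shares of all tested genes called lower were 5.55%, 4.88% and 4.94% in the same order. The cause of these shifts was not tested. With 1 library left out, with sample weights or with a replicate block, the share called over all genes was not counted. Dll4 had a log2 change of -0.016 under quantile normalization. With 1 library left out, the difference in log2 ratio ran from -0.10 to 0.13 for Notch2 to Notch1 (-0.05 without control replicate 2, -0.10 without dKO replicate 3), from -0.69 to 0.05 for Hes1 to Hey1 (0.048 without dKO replicate 3) and from -0.05 to 0.23 for Hes1 to Rbpj (-0.0066 without control replicate 2, -0.053 without dKO replicate 3). With a pseudocount of 0.1 the Hes1 to Hey1 difference was 0.12. Libraries with the same replicate number did not deviate together (correlations of -0.08, -0.10 and -0.01). Pairs with different numbers gave -0.05 to 0.10, so these values cannot tell whether a number stands for a shared source. With the replicate number as a block 6 of the 10 genes and 9 wider pathway genes were called higher, and the Jag1 to Dll4 difference was 1.09. Depth, known only as an estimate, limits Hey1, Notch3 and Notch4 most.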
